A study of Chlamydomonas reinhardtii with 90 samples.

Results

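The replication fork genes described here are 6 of the 17741 genes in the count table of a heat time course in the green alga *Chlamydomonas reinhardtii*. They were chosen by gene identifier: RFA1 (Cre17.g718850), RFA2 (Cre02.g100000) and RFA3 (Cre16.g651000), annotated to replication protein A, PCN1 (Cre12.g515850), the sliding clamp PCNA, POLA2 (Cre01.g017450), a subunit of DNA polymerase alpha, and RIR2 (Cre12.g491050), the small subunit of ribonucleotide reductase. Wild-type cells of strain CC-1690 (21gr, mt+) were grown in photobioreactors in Tris-acetate-phosphate medium, under constant light and at constant density, and were shifted from 25°C to either 35°C or 40°C, kept there during 24 h and returned to 25°C for 48 h. Each treatment was run in bioreactors of its own, and RNA was sequenced before heat, at 8 times in heat and at 6 times in recovery, with 3 replicates (A, B and C) at each, which makes 90 libraries in 30 groups. The 0 h samples were taken when the culture reached the new temperature. Every group shares the strain, medium, light and acetate supply, and the control of each treatment is its own pre-heat group.

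At a replication fork the parental strands are unwound, and the exposed single strands are bound by replication protein A, a complex of a large, a middle and a small subunit. DNA polymerase alpha, with its primase, starts each new strand, and PCNA then encircles the DNA and tethers the polymerases that extend it. Ribonucleotide reductase makes the deoxyribonucleotides that are used up, and in many eukaryotes transcripts of these genes peak around the S phase of the cell cycle. *Chlamydomonas* divides by multiple fission, in which rounds of DNA synthesis and mitosis alternate rapidly.

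All 6 genes passed the low-count filter, which 15541 genes did, and none was at 0 reads in any library. Libraries held 10872030 to 35917831 counted reads. POLA2 was the least covered, with 10 to 1139 reads per library, and RIR2 reached 23772. HSP22A, a small heat shock protein used here to check the labels, lay at 0.366 to 1.01 TPM (read counts per gene length, scaled to the same sum in each library) before heat, at 353.3 to 573.6 TPM after 0.5 h at 35°C and at 25310 to 33990 TPM after 0.5 h at 40°C. Fold changes below are log2 values from edgeR's quasi-likelihood test with their standard errors (SE). To be called, a gene needed an adjusted p under 0.05, a log2 fold change beyond 1 in either direction and mean TPM values at least 1 apart. The model scales libraries so that the typical gene does not move, while TPM does not: across the 11116 genes with 1 TPM or more before heat at 40°C, the median log2 ratio of TPM was -0.56 at 0.5 h of heat, 0.98 at 2 h of recovery and 1.07 at 4 h of recovery. The single gene Cre01.g066917 held 34.8% of all TPM before heat at 40°C and 11.8% at 4 h of recovery. TPM values in early recovery therefore exceed pre-heat values by more than the fitted fold changes do. Nothing in the labels says that letters mark separate cultures, so p-values measure the spread between these samples, and in bulk RNA fewer cells in a phase and less RNA per cell cannot be told apart.

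Before heat the 35°C and 40°C cultures did not differ in any of the 6 genes by this test, with log2 differences of -0.15 to -0.01, 0 calls and 0 genes at an unadjusted p under 0.05, and 0 calls under each of 9 other settings. Of all genes tested 0.0257% were called there. The levels then moved in 3 phases, which are plotted for each library and gene below. In early heat the genes fell at both temperatures, with RFA1 at 40°C as the exception. At 8 h and 16 h of heat the calls against pre-heat parted. At 35°C no gene was called at these times, where 4.34% and 1.37% of all genes tested were called lower. At 40°C 5 of 6 were called lower at both times, where 8.46% and 9.24% were. By 24 h 5 of 6 genes were again called lower at 35°C, against 2.97%, and 3 of 6 at 40°C, against 10.3%. Differences between the treatments in the change from pre-heat were already called at 0.5 h of heat, as given further below. After 2 h at 25°C all 6 genes were called higher than before heat in both treatments, against 3.22% of all genes after 35°C and 17.5% after 40°C.

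**Figure D1:**
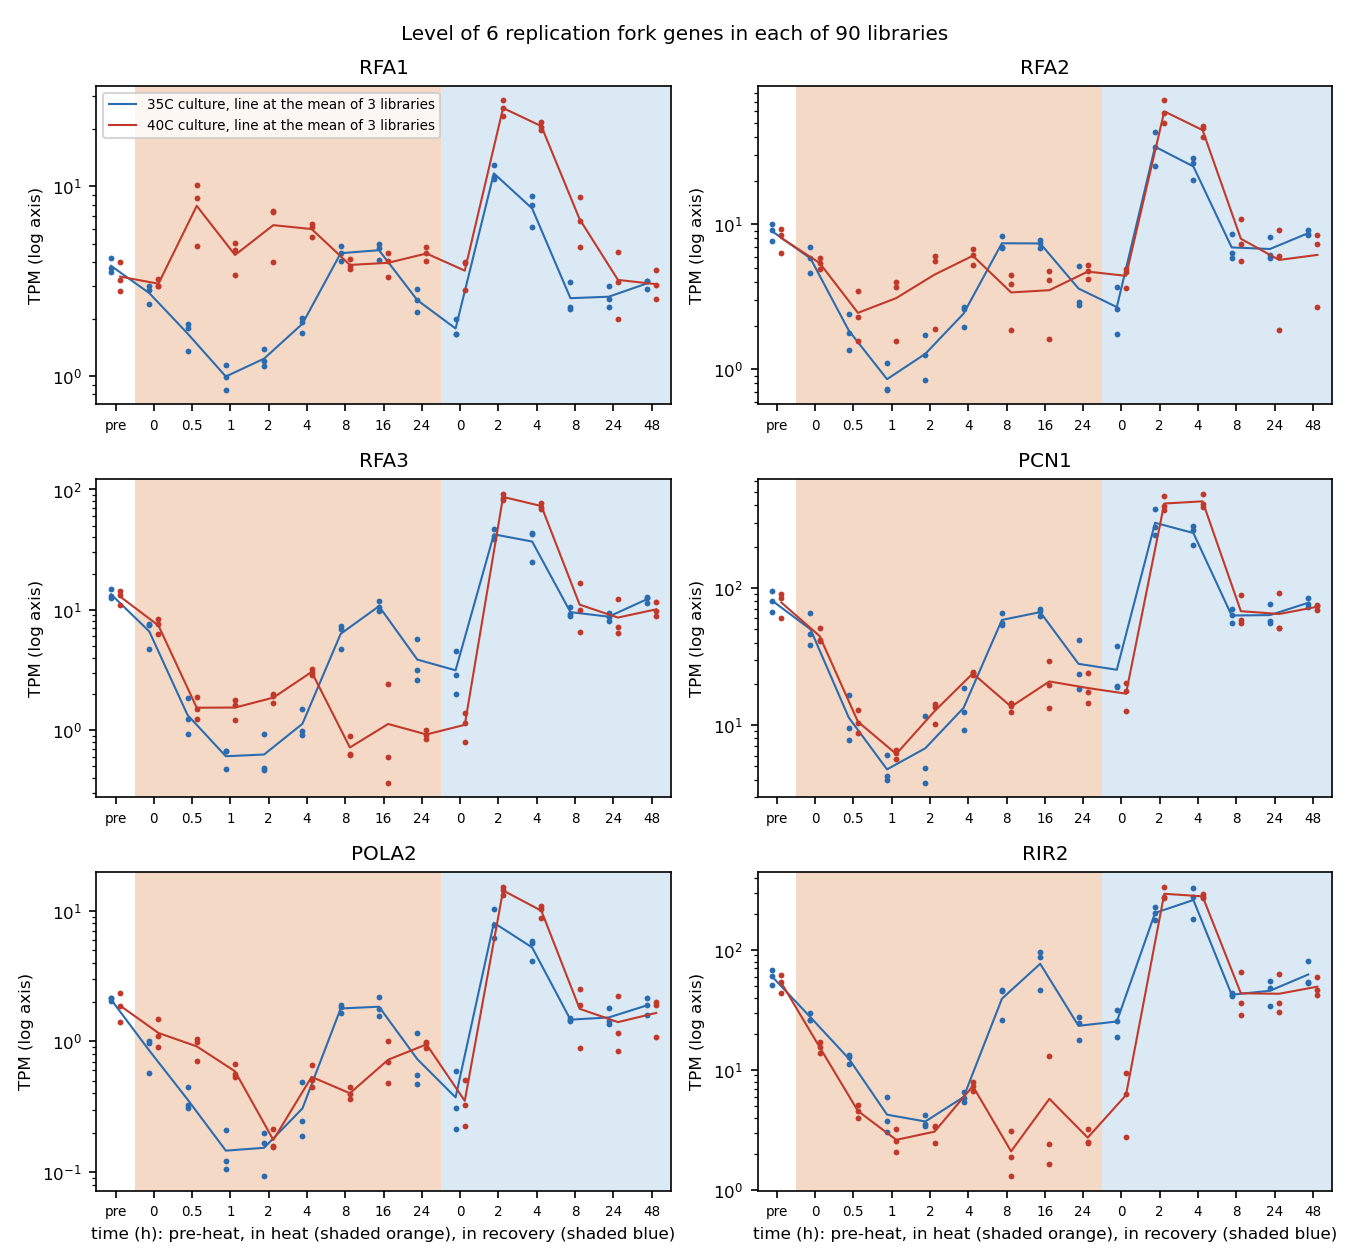
TPM on a log axis of each gene in each of 90 libraries (points, 35°C cultures blue and 40°C cultures red), with lines at the mean of 3 libraries, against time before heat, in heat (orange background) and in recovery (blue background). All genes stand highest at 2 or 4 h of recovery, and only RFA1 has no trough in 40°C heat.

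In 35°C heat, edgeR's quasi-likelihood test called 5, 6, 6 and 5 of the 6 genes lower at 0.5, 1, 2 and 4 h, where 5.75%, 7.14%, 6.38% and 6.18% of all genes tested were called lower. At 0 h the test called POLA2 alone, against a background of 4.16%. At 8 h and 16 h it called 0 of 6, against 4.34% and 1.37% of all genes called lower, and DESeq2 and limma on log2(TPM + 1) also called 0. At an unadjusted p under 0.05 there were 1 gene (RFA3) and 0 genes. RFA3 at 8 h also passed the adjusted p, at 0.0106 by edgeR's quasi-likelihood test. Its change of -0.96 missed a call on the fold threshold alone. At 24 h the calls came back for 5 of 6 genes, against 2.97%, and at 0 h of recovery 4 of 6 were called lower, against 6.09%. In 40°C heat the test called 1, 4, 5, 4, 4, 5, 5 and 3 of 6 genes lower from 0 h to 24 h, where 5.26%, 15.3%, 13.4%, 10.7%, 8.38%, 8.46%, 9.24% and 10.3% of all genes were called lower, and 4 of 6 at 0 h of recovery, against 12.2%. These comparisons share the 3 pre-heat libraries of their treatment. Over all 28 comparisons with pre-heat the 6 genes gave 67 calls lower, 23 calls higher and 78 without a call. At the times of calls lower, 2.97% to 15.3% of all genes tested were called lower. At the times of calls higher, 3.22% to 17.5% were called higher.

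**Figure D2:**
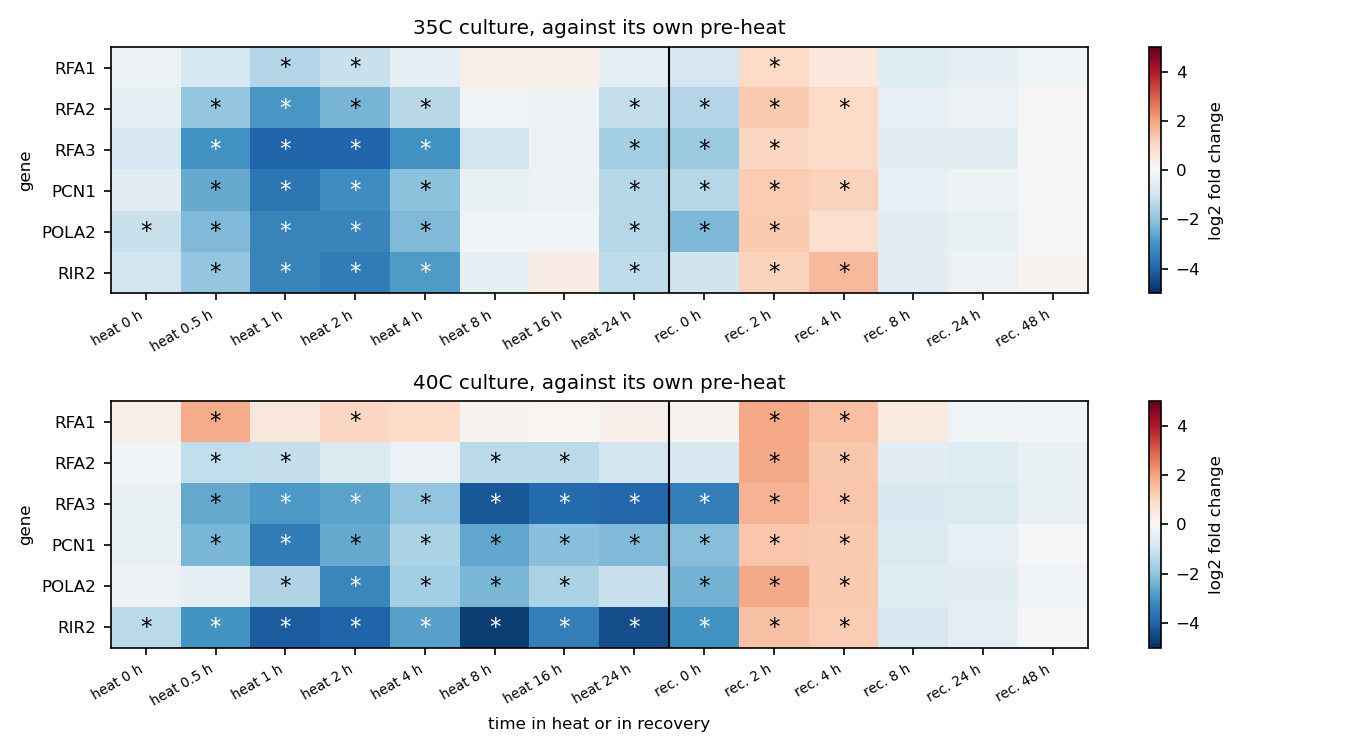
Log2 fold change (colour scale, blue lower and red higher) of each gene at each time in heat and in recovery, against its own pre-heat libraries, with a star where the gene was called. At 35°C the column at 8 h and the one at 16 h hold no star, while at 40°C the row of RIR2 is starred at every time of heat.

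Among the replication protein A genes RFA3 moved the most. It is annotated, like RFA1, to the large subunit class that binds single-stranded DNA. RFA3 stood at 12.5, 15 and 12.9 TPM before heat in the 35°C cultures and at 0.675, 0.478 and 0.664 TPM after 1 h at 35°C, so that every heated library was far below every control. The log2 fold change was -4.01 (SE 0.35, adjusted p = 1.06e-14), with -3.97 at 2 h and -3.03 at 4 h. After 16 h RFA3 in the 35°C libraries was back at 9.8, 10.5 and 11.8 TPM, a change of -0.29 (SE 0.30) that was not called.

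At 40°C RFA3 fell, partly returned and fell again. It went from 14.3, 11 and 13.3 TPM before heat to 1.24, 1.87 and 1.49 TPM at 0.5 h, a log2 fold change of -2.54 (SE 0.32, adjusted p = 1.61e-10). At 4 h it stood at 2.86, 3.23 and 3.03 TPM, and at 8 h at 0.892, 0.638 and 0.62 TPM, with no overlap between these times. The step from 4 h to 8 h was -2.28 (SE 0.33, adjusted p = 1.03e-06), where 1.25% of all genes were called lower. At 24 h RFA3 was at 0.835, 0.918 and 1 TPM, the only time at which its mean lay under that of POLA2, with a log2 fold change of -3.93 (SE 0.34) against pre-heat. Its mean at 16 h was raised by replicate B, a library described further below.

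RFA2 encodes the middle subunit of the complex, which carries regulatory phosphorylation sites in yeast and animals. At 35°C it fell from 10.1, 9.08 and 7.68 TPM to 1.11, 0.735 and 0.725 TPM at 1 h, a log2 fold change of -2.91 (SE 0.41, adjusted p = 1.96e-08). At 40°C its fall was shallower and its replicates were split. At 1 h RFA2 stood at 1.58, 4.02 and 3.71 TPM against 9.31, 6.39 and 8.43 TPM before heat, and replicate A was also the lowest at 0.5, 2, 8 and 16 h. The log2 fold change at 1 h was -1.17 (SE 0.37, adjusted p = 0.00429), at 8 h -1.29 (SE 0.37) and at 16 h -1.32 (SE 0.37). Without replicate A of the heated group the values at 1 h and 8 h were -0.81 and -0.97 and the calls were lost. At 35°C, 24 h, the fall of -1.21 (SE 0.37) was lost without replicate B of that group (-1.07, adjusted p = 0.0775) or without replicate C (-1.03, adjusted p = 0.0877).

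RFA1, the other large subunit gene, differed between the temperatures from 0.5 h of heat. At 35°C it fell with the others, from 3.54, 3.71 and 4.19 TPM to 1.15, 0.847 and 0.988 TPM at 1 h, a log2 fold change of -1.47 (SE 0.23, adjusted p = 3.27e-07), which was the smallest fall of the 6 genes at that time. At 40°C it rose, from 4.01, 2.8 and 3.22 TPM before heat to 10.2, 8.65 and 4.88 TPM at 0.5 h. The heated libraries lay above all 3 controls, with replicate C the nearest to them. The log2 fold change was 1.87 (SE 0.22, adjusted p = 3.75e-11), while 15.2% of all genes were called higher at that time.

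The size of this rise in RFA1 depended on the scale. It was 1.37 to 2.20 when single libraries were left out, 1.18 with library size alone and 0.99 on the log2(TPM + 1) scale, where it no longer passed the fold threshold. At 2 h of 40°C RFA1 was at 4, 7.41 and 7.34 TPM, replicate A lying just inside the range before heat. The rise of 1.03 (SE 0.22) was called there, against 9.07% of all genes called higher, but was lost under 5 of 10 other settings, at 0.71 on the log2(TPM + 1) scale, 0.84 on the log2(TPM + 0.1) scale, 0.99 with DESeq2 and with its size factors and 1.00 when fitted to the 6 libraries compared, and at 0.92, 0.90 and 0.88 without pre-heat replicate B, heated replicate B or heated replicate C. From 8 h to 24 h of 40°C its log2 fold changes were 0.14, 0.08 and 0.25 (SE 0.22), with 95% intervals that together ran from -0.36 to 0.69. RFA1 had no call lower at any time at 40°C.

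Because both lie within 1 library, the ratio of RFA1 to RFA3 in TPM does not depend on scaling between libraries. It was 0.282, 0.254 and 0.242 before heat at 40°C and 8.23, 4.62 and 3.27 at 0.5 h. At 8 h it stood at 4.09, 5.96 and 6.65, and it returned to 0.302, 0.345 and 0.255 after 2 h of recovery. At 35°C the ratio rose less, from 0.284, 0.248 and 0.324 to 1.49, 2.48 and 2.42 at 2 h, and was at 0.419, 0.471 and 0.405 by 16 h. RFA3 was thus the more abundant transcript of the pair before heat and RFA1 the more abundant one in all 24 libraries of 40°C heat and recovery 0 h after the first time point. How far reads of the pair, which share domains, could have been assigned to each other was not tested.

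**Figure D3:**
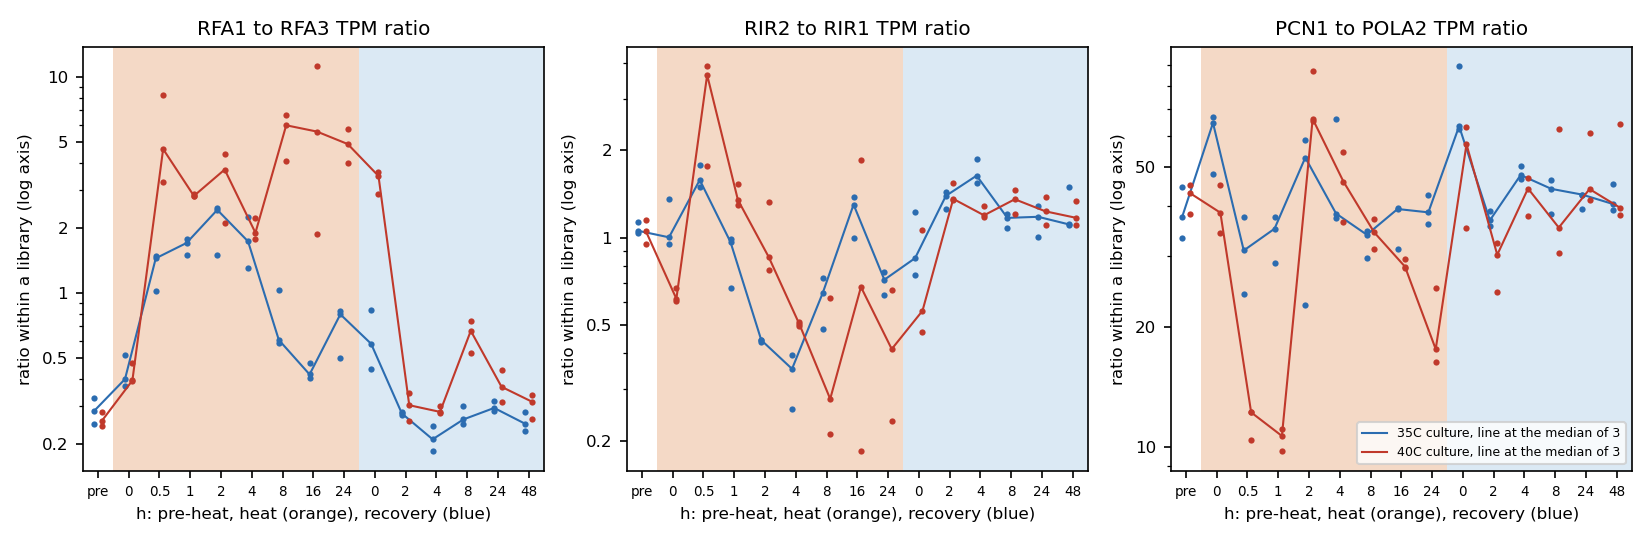
Ratio of TPM within each library (points, log axis, 35°C cultures blue and 40°C cultures red) for RFA1 to RFA3, RIR2 to RIR1 and PCN1 to POLA2, with lines at the median of 3 libraries, against time before heat, in heat (orange background) and in recovery (blue background). RFA1 to RFA3 stands above 1 from 0.5 h of 40°C heat to 0 h of recovery, RIR2 to RIR1 peaks at 0.5 h of 40°C, and PCN1 to POLA2 dips to about 10 at 1 h of 40°C.

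PCN1 encodes the clamp that holds polymerases on DNA, and it was the most abundant of the 6 transcripts before heat. At 35°C it fell from 95, 80.2 and 67.3 TPM to 6.05, 3.99 and 4.24 TPM at 1 h, with no overlap, a log2 fold change of -3.62 (SE 0.33, adjusted p = 3.09e-14). By 8 h it was at 55.9, 54.1 and 65.5 TPM, and the change of -0.36 (SE 0.29) was not called. At 40°C PCN1 fell from 89.7, 61 and 84.5 TPM to 6.24, 6.58 and 5.68 TPM at 1 h, a change of -3.52 (SE 0.32, adjusted p = 5.27e-15). It then stayed down, at 14.6, 13.9 and 12.5 TPM at 8 h and 17.4, 14.4 and 24.2 TPM at 24 h. Those changes were -2.59 (SE 0.31) and -2.20 (SE 0.30), both called, and no PCN1 call against pre-heat in 40°C heat was lost when any single library was left out.

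The early falls of PCN1 at the 2 temperatures were not shown to differ. The change was higher at 40°C than at 35°C by 0.24 at 0.5 h and by 0.11 at 1 h, with 95% intervals of -0.59 to 1.07 and -0.73 to 0.95. At 8 h and 16 h the same difference was -2.22 (SE 0.42, adjusted p = 5.03e-05) and -1.84 (SE 0.42, adjusted p = 0.000448). At 24 h, when PCN1 had fallen again at 35°C to 42.1, 18.3 and 23.6 TPM, the difference was -0.78 with an interval of -1.60 to 0.05.

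POLA2 was the least abundant of the 6 transcripts before heat. Its annotation calls it catalytic, but its domains are those of the B subunit, which links the polymerase to its partners in yeast and animals. At 35°C POLA2 was the only gene called at 0 h, at 1.01, 0.575 and 0.964 TPM against 2.13, 2.13 and 2.02 TPM before heat, a log2 fold change of -1.11 (SE 0.31, adjusted p = 0.00354) that became -0.90 and was lost without heated replicate B. It reached 0.21, 0.106 and 0.121 TPM at 1 h, a change of -3.35 (SE 0.37, adjusted p = 2.75e-11).

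At 40°C POLA2 fell later than the other genes that fell. It was at 1.04, 0.986 and 0.712 TPM at 0.5 h, below the controls at 2.34, 1.41 and 1.87 TPM without overlap, but TPM of the typical gene was also lower at that time, and the fitted change was -0.46 (SE 0.30, adjusted p = 0.174). At 1 h it was at 0.562, 0.673 and 0.532 TPM and at 2 h at 0.157, 0.156 and 0.214 TPM, so that the lowest level came 1 h later than that of PCN1. The changes at 1 h and 2 h were -1.51 (SE 0.32, adjusted p = 3.02e-05) and -3.26 (SE 0.36, adjusted p = 6.12e-12). POLA1, the catalytic subunit of the same polymerase, and POLA4, a primase subunit, had already changed by -3.76 and -4.71 at 0.5 h, from means of 1.76 and 14.4 TPM to 0.0921 and 0.387 TPM. The lag of POLA2 behind PCN1 shows in the ratio of PCN1 to POLA2, which was 38.3, 43.2 and 45.3 before heat, 11.1, 9.78 and 10.7 at 1 h and 65.3, 87.1 and 66.1 at 2 h of 40°C.

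Later in 40°C heat POLA2 remained low at 0.394, 0.444 and 0.362 TPM at 8 h, a change of -2.29 (SE 0.33, adjusted p = 1.87e-08). At 16 h the change was -1.56 (SE 0.32), and without pre-heat replicate A it was -1.39 and no longer met the TPM criterion. At 24 h it was at 0.988, 0.885 and 0.967 TPM and the change of -1.13 (SE 0.30, adjusted p = 0.00104) missed a call only because the means, 0.947 and 1.87 TPM, differed by less than 1 TPM. On the log2(TPM + 1) scale the changes of POLA2 at 1, 4 and 16 h were -0.84, -0.90 and -0.74, under the fold threshold, as a pseudocount of 1 compresses changes of a gene this low.

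RIR2, the subunit of ribonucleotide reductase that carries the radical cofactor, had the deepest fall of the 6 genes at 40°C. It stood at 53.6, 43.8 and 61.7 TPM before heat, at 16.9, 15.6 and 14 TPM when 40°C was reached and at 2.08, 3.23 and 2.55 TPM at 1 h. The change at 0 h was already -1.35 (SE 0.35, adjusted p = 0.00113), the only call among the 6 genes at that time, and at 1 h it was -4.17 (SE 0.40, adjusted p = 2.01e-14). After a partial return to 6.74, 7.35 and 7.94 TPM at 4 h, RIR2 fell again to 3.1, 1.9 and 1.31 TPM at 8 h. Against pre-heat that was -4.74 (SE 0.41, adjusted p = 1.68e-15), and the step from 4 h to 8 h was -2.01 (SE 0.37, adjusted p = 7.59e-05).

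At 35°C RIR2 went the other way over the same hours. It fell from 60.5, 68.1 and 51 TPM to 3.42, 4.2 and 3.55 TPM at 2 h, a change of -3.50 (SE 0.38, adjusted p = 1.49e-11). It then stood at 26.2, 45.6 and 46 TPM at 8 h, a step of 2.31 (SE 0.37, adjusted p = 4.71e-06) from 4 h. At 16 h replicate A was at 46.3 TPM, below the controls, and replicates B and C at 87.9 and 95.6 TPM, above them, and the change of 0.38 (SE 0.35) was not called. At 24 h it was at 27.5, 17.7 and 24.7 TPM, a change of -1.27 (SE 0.35, adjusted p = 0.0057) that was lost without replicate B of that group at -1.10 and an adjusted p of 0.0567.

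RIR1 encodes the large, catalytic subunit of the same enzyme, and its transcript did not keep a fixed ratio to RIR2. Before heat at 40°C the ratio of RIR2 to RIR1 was 0.952, 1.06 and 1.15. At 0.5 h it was 3.89, 3.63 and 1.76, since RIR1 was down to 1.18, 1.42 and 2.25 TPM (change -4.46) and RIR2 to 4.57, 5.14 and 3.96 TPM (change -2.98, SE 0.37). At 4 h of 35°C the ratio was 0.353, 0.395 and 0.256, below the pre-heat values of 1.06, 1.13 and 1.03 at 35°C. At 40°C it was also below 1 in all 3 libraries at 0 h (0.607, 0.616 and 0.671) and at 4, 8 and 24 h. At 2 h of recovery it was 1.35, 1.36 and 1.55.

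The return of the genes within 35°C heat, and their second fall, were seen in the steps between neighbouring times. From 4 h to 8 h of 35°C 5 of 6 genes were called higher, all but RFA1, where 2.32% of all genes were, with steps of 1.20 for RFA2, 1.70 for PCN1, 2.07 for RFA3, 2.08 for POLA2 and 2.31 for RIR2. The step of RFA2 lost its call without replicate B or C at 4 h or replicate B at 8 h, at 1.22, 1.08 and 1.20. From 16 h to 24 h 4 of 6 genes were called lower, where 1.27% of all genes were, with steps of -1.18 for PCN1, -1.27 for POLA2, -1.41 for RFA3 and -1.65 for RIR2. This fall depended on single libraries: without replicate B at 24 h the steps were -0.95, -1.03, -1.19 and -1.48 and all 4 calls were lost. Without replicate C at 24 h PCN1, POLA2 and RFA3 lost theirs at -1.05, -1.07 and -1.26, and without replicate C at 16 h POLA2 lost its call at -1.12.

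In recovery the 6 genes jumped between 0 h and 2 h at 25°C. This step was called higher for 6 of 6 genes in both treatments, against 11.2% of all genes at 35°C and 14.5% at 40°C. The largest step was that of RFA3 after 40°C, from 1.15, 0.789 and 1.37 TPM to 85.5, 82.5 and 92.2 TPM, a log2 fold change of 5.20 (SE 0.36, adjusted p = 1.52e-20). For RIR2 it was 4.48 (SE 0.40), for POLA2 4.28 (SE 0.35), for PCN1 3.50 (SE 0.32), for RFA2 2.67 (SE 0.38) and for RFA1 1.74 (SE 0.22). After 35°C the largest was that of POLA2, 3.56 (SE 0.34), and the smallest that of RFA1, 1.84 (SE 0.23).

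The levels reached exceeded those before heat. At 2 h of recovery 6 of 6 genes were called higher than pre-heat in both treatments, against 3.22% of all genes after 35°C and 17.5% after 40°C. PCN1 reached 379, 276 and 242 TPM after 35°C and 399, 372 and 468 TPM after 40°C, log2 fold changes of 1.26 (SE 0.29, adjusted p = 0.000469) and 1.38 (SE 0.29, adjusted p = 3.68e-05). POLA2 reached 13.2, 15.2 and 14.4 TPM after 40°C, a change of 1.91 (SE 0.30, adjusted p = 6.44e-08). RFA1 stood at 25.8, 28.4 and 23.6 TPM after 40°C against 2.8 to 4.01 TPM before heat, and its change of 1.93 (SE 0.22, adjusted p = 1.47e-11) had the highest value of the 6.

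After 35°C 2 of the rises at 2 h were close to the fold threshold. RFA1 at 11, 12.9 and 11.2 TPM had a change of 1.00 (SE 0.22), which was 0.96, 0.99, 0.90 and 0.98 without pre-heat replicate A, pre-heat replicate B, recovery replicate B or recovery replicate C. RFA3 at 39, 46.9 and 41.2 TPM had a change of 1.04 (SE 0.30), which was 0.99, 0.99 and 0.93 without pre-heat replicate A, pre-heat replicate C or recovery replicate B. In each of these 7 refits the call was lost, although every recovery library of both genes stood above every pre-heat library.

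At 4 h of recovery 3 of 6 genes were called higher after 35°C, against 3.73%, and 6 of 6 after 40°C, against 13.8%. RIR2 after 35°C was at 179, 326 and 275 TPM, a change of 1.64 (SE 0.35, adjusted p = 0.000213). RFA2 at 20.3, 26.5 and 28.5 TPM had a change of 1.01 (SE 0.36) and lost its call without pre-heat replicate B (1.03, adjusted p = 0.0517), pre-heat replicate C (0.89), recovery replicate B (0.98) or recovery replicate C (0.95). Between 4 h and 8 h all 6 genes fell in both treatments, against 6.56% and 10.6% of all genes called lower, by 1.14 to 2.18 after 35°C and by 1.02 to 2.14 after 40°C. The smallest of these, RFA1 after 40°C, was -0.90 and lost its call without replicate A at 8 h.

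From 8 h to 48 h of recovery no gene was called against pre-heat. After 35°C the counts at an unadjusted p under 0.05 were 1, 0 and 0 of 6 at 8, 24 and 48 h, and after 40°C they were 5, 1 and 0. DESeq2 and limma on log2(TPM + 1) called 0 at each of these times, where 0.772%, 0.0836% and 0% of all genes were called either way after 35°C and 10.2%, 1.18% and 0.0257% after 40°C. At 8 h after 40°C 2 genes also had an adjusted p under 0.05 by edgeR's quasi-likelihood test, the lowest being 0.0369. Changes of the 6 genes there ran from -0.82 to 0.49, short of the fold threshold. At 48 h the log2 changes ran from -0.22 to 0.14 after 35°C and from -0.37 to -0.09 after 40°C, and PCN1 stood at 69.1, 75.6 and 74.5 TPM after 40°C.

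The change at 40°C was set against the change at 35°C at each of 14 times. Of 84 such differences 24 were called, 12 higher and 12 lower, and their direction followed the time in heat. At 0 h none was called, with 0 genes at an unadjusted p under 0.05 and 0 calls by DESeq2 or limma, against 2.9% and 1.68% of all genes called higher and lower. At 0.5, 1, 2 and 4 h the called genes were 2, 4, 3 and 1 of 6, all less reduced or more raised at 40°C, where 16.2%, 11.3%, 10.4% and 9.05% of all genes were called higher. At 8, 16 and 24 h they were 4, 4 and 2 of 6, all lower at 40°C, where 6.42%, 9.8% and 10.4% of all genes were called lower. The median over the 6 genes was 1.43 at 1 h and -2.20 at 8 h, beside 0.08 and 0.02 over all genes tested.

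RFA1 carried the positive side, with differences of 2.73 (SE 0.32, adjusted p = 1.13e-10) at 0.5 h, 2.03 at 1 h and 2.16 at 2 h, and still 1.45 after 4 h. POLA2 differed by 1.75 (SE 0.44, adjusted p = 0.000841) at 0.5 h and by 1.83 at 1 h, but by 0.03 at 2 h with an interval of -1.03 to 1.10. By limma on log2(TPM + 1) all 4 called differences of POLA2 were under the fold threshold, at 0.61, 0.59, -0.87 and -0.61 for 0.5, 1, 8 and 16 h. RIR2 carried the negative side, at -4.24 (SE 0.52, adjusted p = 5.57e-09) at 8 h, -3.85 at 16 h and -3.17 at 24 h. RFA3 followed at -3.27 (SE 0.44, adjusted p = 6.7e-08), -3.55 and -2.24. RFA3 and POLA2 were called in both directions, RFA3 being also higher by 1.12 at 1 h and 1.30 at 2 h.

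Those early RFA3 differences were weak. At 1 h the adjusted p was 0.0478, and the call was lost when any 1 of 11 of the 12 libraries involved was left out, with values of 0.96 to 1.21. At 2 h (adjusted p = 0.0221) it was lost without heated replicate B at 35°C (1.17), heated replicate C at 35°C (1.14) or pre-heat replicate B at 40°C (1.21). The difference of RFA2 at 2 h, 1.63 (SE 0.53), was lost without replicate C at 35°C (1.41) or replicate C at 40°C (1.34). All of these values kept their direction.

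In recovery 3 genes were called at 0 h, RFA3 (-1.62) and RIR2 (-2.04) lower and RFA1 (1.03) higher. Of all genes 17.1% and 13.2% were called higher and lower at that time, so that 1 of 6 called higher was near the share of all genes. None was called at 2 h or 4 h, with 0 calls by DESeq2 but 2 by limma on log2(TPM + 1). Of all genes 9.84% and 13.7% were called higher and lower at 2 h, and 7.73% and 6.98% at 4 h. RFA1 was the 1 gene at an unadjusted p under 0.05 each time. It also passed the adjusted p, at 0.0136 and 0.0133 by edgeR's quasi-likelihood test. Its differences of 0.93 and 0.98 missed a call on the fold threshold. RFA1 differed by 1.10 (SE 0.31, adjusted p = 0.00817) at 8 h, where 7.56% of all genes were called higher. That call was lost without pre-heat replicate B at 40°C (0.99) or recovery replicate B at 40°C (0.97). The call of RFA1 at 0 h was lost at 0.92 to 1.00 without 35°C pre-heat replicate C, 35°C recovery replicate B or C, 40°C pre-heat replicate B, or 40°C recovery replicate A or C. No gene was called at 24 h or 48 h, with 0 at an unadjusted p under 0.05 and 0 by DESeq2 or limma, where 0.161% and 0% of all genes were called either way.

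**Figure D4:**
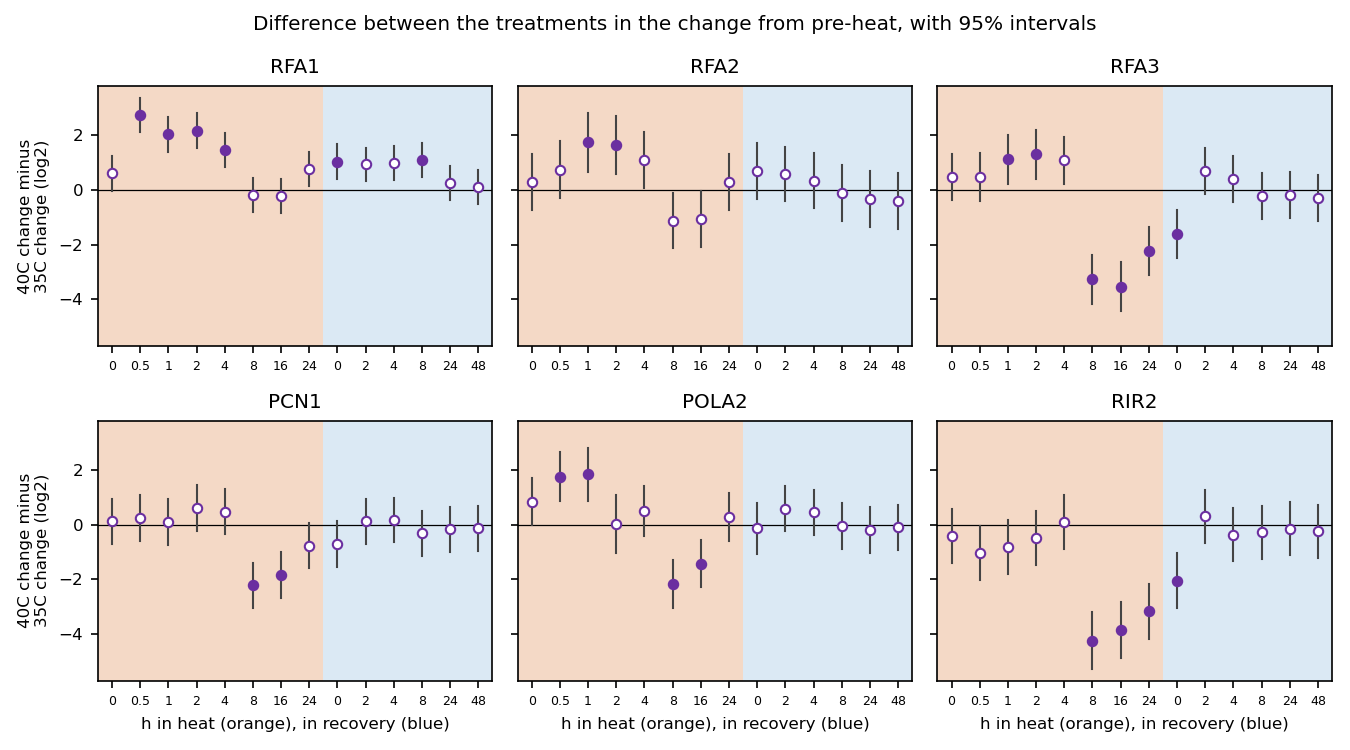
Log2 change from pre-heat at 40°C minus that at 35°C (points) with 95% intervals (bars) for each gene at each time in heat (orange) and recovery (blue), filled where called. RFA1 lies above 0 from 0.5 to 4 h of heat, while RFA3 and RIR2 lie below -2 from 8 to 24 h.

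One library stood apart among these values, replicate B at 16 h of 40°C. RIR2 was at 13.2 TPM in it and at 2.4 and 1.66 TPM in replicates A and C, and RFA3 at 2.41 TPM against 0.597 and 0.364 TPM. HSP22A was at 976.7 TPM in it, the top of a range whose lowest value was 73.9 TPM. Without this library RIR2 changed by -4.87 in place of -3.46 against pre-heat and RFA3 by -4.92 in place of -3.84, so that the calls did not rest on it. The step of RIR2 from 8 h to 16 h of 40°C, which was called at 1.28 (SE 0.37, adjusted p = 0.0162, where 1.39% of all genes were called higher), became -0.13 without it. What set this library apart was not tested.

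In TPM, which is per gene length, the order of mean levels before heat was POLA2, RFA1, RFA2, RFA3, RIR2, PCN1 from lowest to highest in both treatments. The gaps between neighbours were wider than the spread before heat at 35°C, except between RIR2 (60.5, 68.1 and 51 TPM) and PCN1 (95, 80.2 and 67.3 TPM), whose ranges overlapped. At 0.5 h of 40°C the order was POLA2, RFA3, RFA2, RIR2, RFA1, PCN1, with RFA1 at 4.88 to 10.2 TPM and PCN1 at 8.71 to 12.8 TPM, which overlapped. At 0.5, 1, 2, 8 and 24 h of 40°C, but not at 0, 4 and 16 h, the mean of RFA1 lay above the mean of RIR2, which in every pre-heat library was the higher of the pair. The mean of RIR2 at 16 h was raised by replicate B, the library described above.

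The other fork genes were taken by annotation from the cell cycle genes of the study, a list chosen on these same samples, so their counts are not independent evidence. The 26 genes comprise partners of polymerase alpha, polymerases delta and epsilon, clamp loaders, helicase cofactors, lagging-strand enzymes and nucleotide supply. At 1 h of 35°C 24 of 26 were called lower (median -3.04), where 7.14% of all genes were, and at 8 h and 16 h 0 of 26 (medians -0.24 and -0.14), where 4.34% and 1.37% were. At 8 h of 40°C 16 of 26 were called lower (median -1.80), against 8.46% of all genes. At 2 h of recovery 14 of 26 were called higher after 35°C (median 1.01), against 3.22%, and 26 of 26 after 40°C (median 1.43), against 17.5%. None of the 26 was called higher in 40°C heat. RFA1 was called higher there at 0.5 h and 2 h, where 15.2% and 9.07% of all genes were. Its call at 2 h was lost under 5 of 10 other settings.

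Whether these groups of genes differed from each other was not tested. The 6 MCM2-7 genes, which encode the ring of the replicative helicase, were all called lower at 0.5 to 24 h of 40°C, with medians of -4.29 at 0.5 h and -1.86 at 24 h. Over these times 8.38% to 15.3% of all genes tested were called lower. Clamp loaders, which open PCNA to place it on DNA, had a median of -1.40 at 2 h of 35°C, where PCN1 was at -3.11. At 4, 16 and 24 h of 40°C 0 of 6 were called, which is near the 8.38%, 9.24% and 10.3% of all genes called lower. RFC1, a subunit of replication factor C, was not called at any time in 40°C heat. DNL1, the ligase that joins Okazaki fragments, stood at means of 5.14 and 5.05 TPM at 2 h of 40°C and before heat (change 0.15), while a ribonuclease H family gene, Cre17.g701350, was at 0.0394 against 6.26 TPM at 0.5 h (change -6.86).

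The median of mitosis genes rose from 2 h to 4 h of recovery in both treatments, while that of the 6 fork genes fell. The median of CYCB1, CDKB1, CDC20 and ALK2 was 0.73 at 2 h and 1.22 at 4 h after 35°C, and 1.13 and 1.74 after 40°C, where the medians of the 6 fork genes were 1.20 and 0.99 after 35°C and 1.81 and 1.34 after 40°C. The difference between these courses was not tested. From 2 h to 4 h of recovery 0 of 6 fork genes were called in either treatment, and RIR2 went the other way after 35°C, from 1.14 to 1.64. CYCB1, the mitotic cyclin, was at means of 186 TPM before heat, 754.8 TPM at 2 h (change 1.01, adjusted p = 0.185) and 1835 TPM at 4 h after 40°C (change 2.18, adjusted p = 0.00606).

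**Figure D5:**
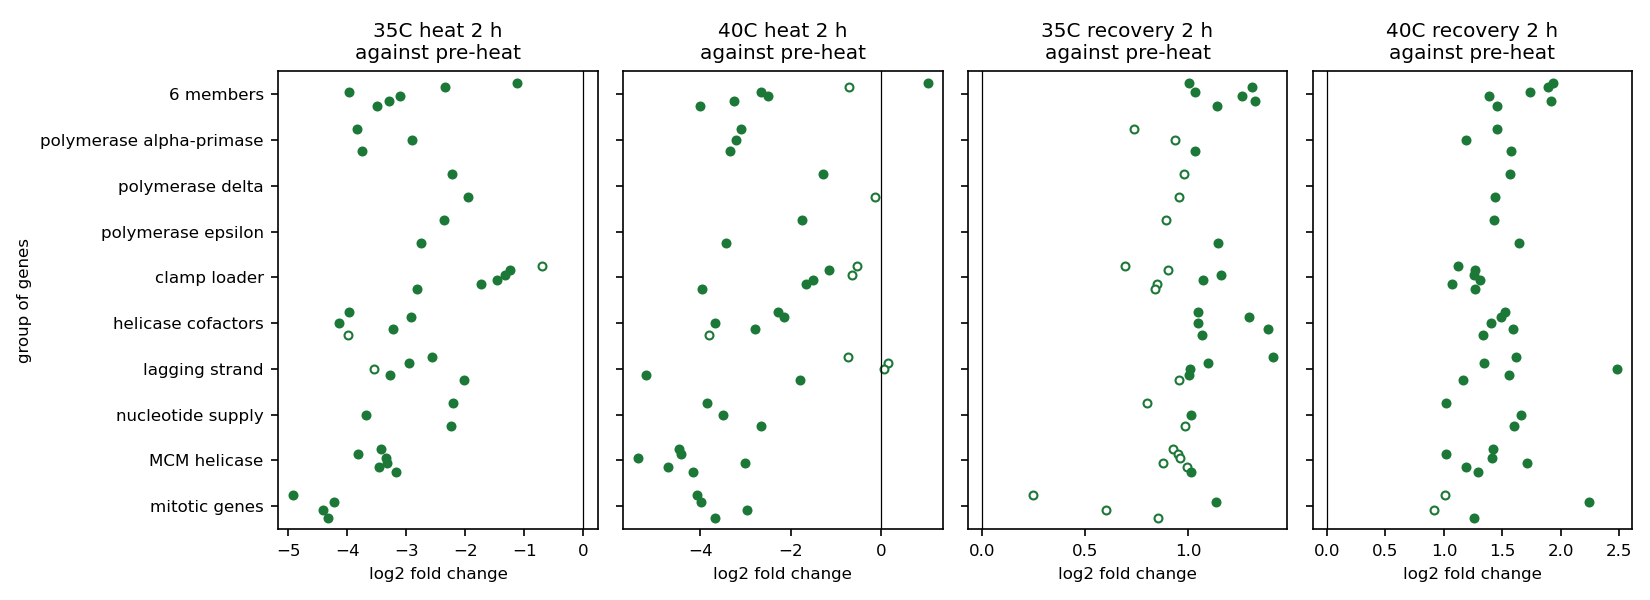
Log2 fold change against pre-heat at 2 h of heat and 2 h of recovery in both treatments, 1 point per gene, filled where called, for the 6 genes and other groups of replication and mitosis genes. All points lie right of 0 at 2 h of recovery, and RFA1 (1.03) is the rightmost of the 6 genes at 2 h of 40°C.

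Across the 30 group means of log2(TPM + 1) the 6 genes were compared with each other and with all genes tested. These means share libraries, depth and scaling, so the correlations are descriptions only. At 35°C (15 groups) the Pearson r of RFA1 with the other 5 genes was 0.909 to 0.969, and at 40°C it was 0.586 to 0.833. Among the other 5 genes r was 0.934 to 0.990 at 35°C and 0.871 to 0.979 at 40°C.

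The 3 genes with the course most like each of the 6 were taken by r over the 30 groups. For PCN1 they were MCM7 (0.987), POLA4 (0.986) and Cre17.g715900 (0.984), which is annotated as dihydrofolate reductase-thymidylate synthase. For RFA3 they were Cre02.g086650 (0.990), Cre07.g313143 (0.989) and Cre02.g118600 (0.988), and for RIR2 MCM3 (0.984), Cre12.g522950 (0.980) and Cre03.g199450 (0.973). For POLA2 they were Cre02.g117350 (0.986), Cre02.g119800 (0.985) and Cre06.g292850 (0.984), and for RFA2 Cre03.g145687 (0.978), a flap endonuclease family gene, Cre03.g180050 (0.976) and Cre03.g149800 (0.974). RFA1 had the lowest top value, with Cre17.g738550 (0.956), Cre10.g445650 (0.950) and Cre03.g203345 (0.943).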

How the data were processed

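RNA-seq libraries of *Chlamydomonas reinhardtii* were made by the authors, who trimmed reads with BBDuk, checked them with FastQC, aligned them to genome release 5.6 with STAR, using only reads with a single mapping position, and obtained counts with HTSeq. Tool versions were not given in the sources used here. As deposited by the authors, counts are whole reads per gene. The deposited TPM values are counts divided by a fixed gene length and scaled to the same sum per library by the authors. Log2 values were computed from these 2 deposited units. Groups follow the labels of the 90 libraries.

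Genes with at least 10 reads in at least 9 libraries were tested (15541 of 17741). One mean per group was fitted to all 90 libraries with edgeR 4.0.16 in R 4.3.3, with TMM factors (0.509 to 1.423), and tested with the quasi-likelihood F-test and Benjamini-Hochberg adjustment over all genes tested. A call needed an adjusted p under 0.05, a log2 fold change beyond 1 and a TPM difference of 1 or more, without the TPM criterion for the change at 40°C minus that at 35°C. Intervals are 95% intervals of the fitted change. Library totals had a median of 22088535.5 reads, and replicates differed by more than sampling noise (chi-square per degree of freedom 9.33 to 173). Alternatives were DESeq2 1.42.0, its size factors, library size alone, no low-count filter, fewer libraries in the fit, no TPM criterion, a replicate block, limma 3.58.1 on log2(TPM + 1) and log2(TPM + 0.1), and leaving out each library or letter. The scripts were tested on simulated data. The 6 genes are always named, and other genes by their list or as the 3 most like each of the 6. The genes and lists were chosen with earlier results of these data known. Sequences and coordinates are not used here.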

Additional observations from a re-analysis of the deposited data

Results flagged for a closer look

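The difference between the changes from pre-heat at 40°C and at 35°C was called in 24 of 84 comparisons with edgeR. At the times of calls higher, 7.56% to 17.1% of all genes tested were called higher. At the times of calls lower, 6.42% to 13.2% were called lower. Of the 24 calls 19 were kept whichever single library was left out. Those of RFA3 at 1 h and 2 h, of RFA2 at 2 h and of RFA1 in recovery were not, as given above. For RFA1 the change at 40°C minus that at 35°C was 2.73 after 0.5 h, 2.03 after 1 h, 2.16 after 2 h and 1.45 after 4 h of heat, and in recovery 1.03 at 0 h and 1.10 at 8 h. For RFA2 it was 1.74 at 1 h and 1.63 at 2 h. For RFA3 it was 1.12 at 1 h and 1.30 at 2 h, then -3.27 after 8 h, -3.55 after 16 h and -2.24 after 24 h of heat, and -1.62 at 0 h of recovery. For PCN1 it was -2.22 at 8 h and -1.84 at 16 h. For POLA2 it was 1.75 at 0.5 h and 1.83 at 1 h, then -2.17 at 8 h and -1.42 at 16 h. For RIR2 it was -4.24 after 8 h, -3.85 after 16 h and -3.17 after 24 h of heat, and -2.04 when recovery began. The treatments were run in different bioreactors, so a bioreactor and its temperature cannot be told apart.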

How the results depend on the processing

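Of the 90 calls of the 6 genes against pre-heat, 80 were kept whichever single library was left out and 81 under every other setting. Of the 24 calls of the difference between treatments, 19 and 16 were kept, and of the 54 calls between neighbouring times, 37 and 41. The count of other fork genes called higher in 35°C recovery was 20 of 156 comparisons, but 36 with library size alone, 38 and 47 with limma on TPM with a pseudocount of 1 and of 0.1, and 7 to 26 when libraries were left out (13 without 35°C pre-heat replicate C). The 6 genes gave 9 calls higher in 35°C recovery and 5 to 10 with libraries left out, 24 calls of the difference between treatments and 16 to 31, and 54 calls between neighbouring times and 38 to 55. The step of RIR2 from 8 h to 16 h of 40°C, 1.28, reversed to -0.13 without replicate B at 16 h and to -0.18 without replicate B throughout (1.92 without replicate A). The causes were not tested. Deviations of same-letter libraries correlated above 0.1 for all 3 letters in 8 of 28 comparisons (r of -0.11 to 0.45), and all 3 letters correlated best with their own in 12, so the letters were not taken to pair the libraries. With the letter within each treatment as a replicate block no call was lost and 5 were gained, with 28 calls lower in 35°C heat, 9 higher in 35°C recovery, 31 lower in 40°C heat, 12 higher in 40°C recovery, 27 between treatments and 56 between neighbouring times. Depth limits POLA2 most, which had as few as 10 reads in a library.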

Other observations

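The ratio of RFA2 to RFA3 in TPM, which moved in all 3 replicates of the 40°C cultures, was at times lowest by far in replicate A. It was 0.653, 0.582 and 0.632 in replicates A, B and C before heat, 2.10 in replicate A against 6.05 and 7.18 in replicates B and C at 8 h of 40°C, 0.290 against 0.834 and 0.752 at 24 h of recovery, and 0.277 against 0.735 and 0.816 at 48 h. At 24 h of 40°C, in contrast, replicate A had the highest ratio, 6.25 against 4.59 and 4.72. RFA2 itself was at 2.7 TPM in replicate A and at 8.5 and 7.27 TPM in replicates B and C at 48 h of recovery.

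MCM5, a subunit of the helicase ring, was the exception among the 6 MCM2-7 genes when 25°C was reached after 40°C. It stood at 20.6 to 28 TPM against 8.63 to 11.2 TPM before heat, a log2 fold change of 1.38 by edgeR's quasi-likelihood test (adjusted p = 0.000115). The other 5 were called lower, where 12.2% of all genes tested were called lower. The share of all genes called higher at that time is not given here.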
